A study of Mus musculus with 30 samples.

Results

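The oocyte maternal complex and maternal effect genes were described through 10 members, taken from the deposited table by gene symbol: Nlrp5, Ooep, Khdc3, Tle6, Padi6, Nlrp2, Nlrp14, Zar1, Npm2 and Oog3. All 10 were among the 18022 genes of the table, and all 10 were among the 14740 genes that passed a filter on low values (mean log2 CPM above 0). CPM is the read count of a gene scaled to a library size. The deposited columns summed to 907668 to 1164842 CPM, so that size was not simply the library's total. A difference of 1 on the log2 scale is a doubling.

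Maternal effect genes are transcribed by the growing oocyte and act after fertilisation, before the embryo's own genome takes over. Several of their proteins join in the subcortical maternal complex, a large assembly under the membrane of the mouse egg, and in the cytoplasmic lattices, the fibres on which the egg stores maternal proteins. In mice, loss of such a gene from the mother typically arrests her embryos at the first cleavages or lowers her fertility, while follicles still grow. In a whole ovary these transcripts are expected to come mainly from oocytes, which are a small share of its cells. Their source was not measured here.

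Whole ovaries of adult CD1 mice, an outbred stock, were profiled by mRNA sequencing in 30 libraries, 3 in each of 10 groups. The mice received DEHP (di(2-ethylhexyl) phthalate) at 20 or 200 ug/kg/day, DiNP (diisononyl phthalate) at 20 or 100 ug/kg/day, or vehicle, in every group for 10 days. Both compounds are plasticizers, and they differ in their side chains, which are 2-ethylhexyl groups in DEHP and a mixture of branched nonyl groups in DiNP. Ovaries were collected 3 months after dosing or directly after it (0 months), which gives the groups DEHP 20, DEHP 200, DiNP 20, DiNP 100 and vehicle at each time. Ages beyond adult, the estrous stage and the number of mice behind a library are not given in the sources used here, so p-values measure the spread between libraries. In bulk ovary RNA scaled to library size, fewer oocytes, less RNA per oocyte and a larger share of RNA from other cells cannot be told apart. The time after dosing cannot be told apart from the age of the mice or the day of collection.

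The libraries had approximate depths of 24.9 to 41.8 M reads (M, mega; median 30.5), read from the smallest steps between deposited values. These depths are only roughly determined, since 13.8 to 32.8% of low values per library lay within 0.05 of a whole read. The share was 14.7% in the library with the highest depth, replicate 3 of DEHP 200 at 0 months. It was lowest, 13.8%, in replicate 1 of DEHP 20 at 0 months. The lowest value of any of the 10 genes corresponded to about 86 reads. A few libraries stood apart. Replicate 3 of DEHP 200 at 0 months had a luteal cell list mean of 5.65 log2 CPM and replicate 2 of that group 10.68, while the 10 genes averaged 5.88 and 4.63 log2 CPM in them. Among vehicle ovaries at 3 months, replicate 1 averaged 5.23 log2 CPM over the 10 genes and replicate 3 averaged 3.91, with luteal means of 9.31 and 11.13. The ovary label held for the defining genes of its cells: the oocyte reference list had medians of 2.78 log2 CPM at 3 months and 3.51 at 0 months, and the granulosa cell list 7.08 and 7.76. Of 9 oviduct epithelium markers, Sprr2f was not in the table and Wfdc2 was below the filter. The other 7 passed it. Their medians ran from -0.05 (Pax8) to 5.18 log2 CPM (Krt8) at 3 months and from 0.31 (Pax8) to 4.91 (Krt8) at 0 months. Whether oviduct tissue was present was not tested.

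The promoters of 8 of the 10 genes were matched in RefSeq (GRCm38.p6), as 10 windows that end at an annotated start. Nlrp14 and Npm2 were not matched. Starts differ between annotations: in GENCODE (vM21, same build) an exon reaches into the 150 bases before the RefSeq start in 5 of the 10 windows, those of Ooep, Zar1, Oog3 and both of Tle6, and these stretches are not shown. The 4 stretches shown lie outside GENCODE exons. They were chosen for the genes with the largest change over time (Padi6, and Nlrp5 and Khdc3 of the complex) and for Nlrp2. Over the 250 bases searched, the window of Nlrp2 was the only one without an E-box, the letters CANNTG. The stretch before another annotated start of Nlrp5 also lies outside GENCODE exons and is not shown. That stretch has 0 E-boxes in its 150 bases. E-boxes are the sites of helix-loop-helix factors such as the oocyte regulators FIGLA and SOHLH1. Each stretch is the 150 bases before an annotated start, read 5′ to 3′ on the gene's strand. The bases after the start were found in a GENCODE transcript of the gene for every window except that of Nlrp2. Capitals mark E-boxes and, in Nlrp2, the reverse complement CAATCA of TGATTG, a form described for the oocyte homeobox factor LHX8.
Nlrp5: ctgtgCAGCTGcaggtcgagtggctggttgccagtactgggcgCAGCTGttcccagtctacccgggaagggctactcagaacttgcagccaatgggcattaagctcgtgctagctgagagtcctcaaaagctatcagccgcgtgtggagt
Khdc3: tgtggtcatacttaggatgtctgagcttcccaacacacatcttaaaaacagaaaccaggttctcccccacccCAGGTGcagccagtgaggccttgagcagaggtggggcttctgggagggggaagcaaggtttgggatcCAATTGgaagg
Padi6: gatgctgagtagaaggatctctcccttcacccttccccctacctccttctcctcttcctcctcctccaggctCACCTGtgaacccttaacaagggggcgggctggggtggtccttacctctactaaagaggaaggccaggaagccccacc
Nlrp2: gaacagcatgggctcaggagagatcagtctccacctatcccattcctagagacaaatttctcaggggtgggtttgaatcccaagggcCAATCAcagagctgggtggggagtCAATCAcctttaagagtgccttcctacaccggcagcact
They lie at chr7:23385739-23385888 (plus strand), chr9:73102248-73102397 (plus strand), chr4:140742644-140742793 (minus strand) and chr7:5351036-5351185 (minus strand) of GRCm38.p6, in the order shown. The stretch of Khdc3 is intronic in a GENCODE transcript that starts further upstream. It also lies inside the RefSeq span of the gene, which begins at 73101381. The starts used for Zar1 and Tle6, whose stretches are not shown, lie inside the RefSeq spans of those genes as well. Counting the base before the start as -1, an E-box begins at -78 in Khdc3 and Padi6. It also begins at -78 in Ooep and at -83 in Zar1, where GENCODE has an exon. Of 32851 promoter windows of all genes, 0.484% have an E-box that begins at -78, and 2.84% have one that begins between -83 and -78. These positions were picked after they had been seen, so the shares describe the windows and test nothing.

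An E-box anywhere in the 250 bases before the start was present in 9 of the 10 windows, against 66.2% of all windows. It is a palindromic pattern, so each match counts for both strands, and the other patterns were searched on both strands. TAATTG, a form of the element bound by the oocyte homeobox factor NOBOX, was present in 2 windows (Ooep and Oog3), against 7.17% of all windows. TAATTA, another form, was present in 1 window (Nlrp5), against 4.84%. TGATTG was present in 2 windows (Nlrp2 and one of Tle6), against 12.7%. TATAAA was present in 2 windows (one of Nlrp5, and Oog3, where it begins at -29), against 12.4%. Nlrp2 held TGATTG 3 times. A match of letters is not a bound site, and no binding was measured here.

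**Figure D1:**
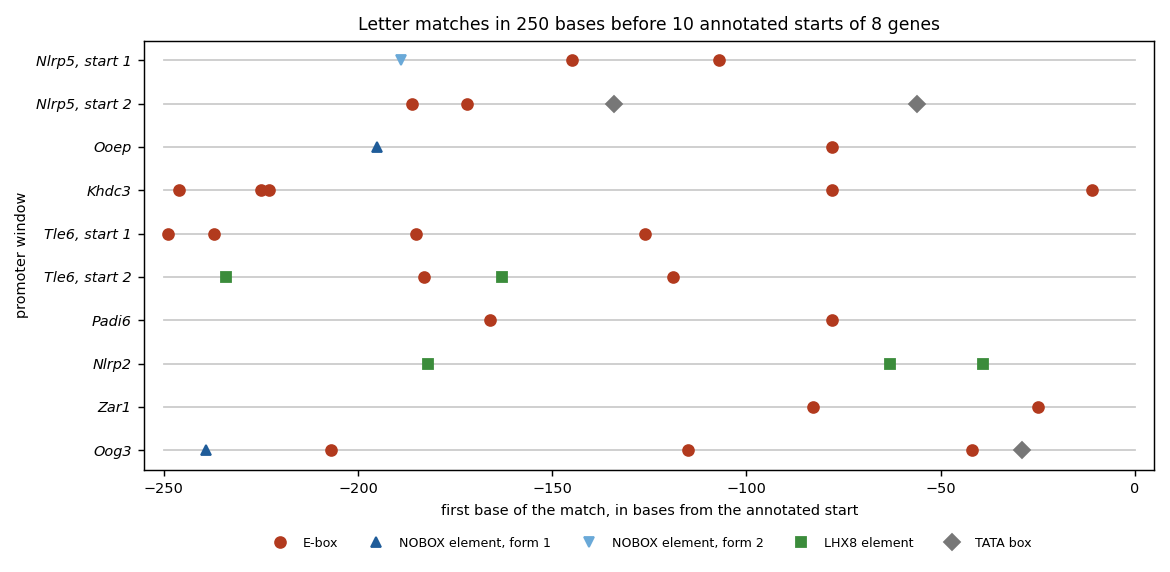
Positions of 5 letter patterns in the 250 bases before 10 annotated starts of 8 genes. The x axis gives the first base of each match in bases from the start, each line is 1 window, and E-boxes are filled circles: 1 in each of Ooep, Khdc3 and Padi6 lies at -78 and 1 in Zar1 at -83.

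The 10 genes are scattered over the genome (GRCm38.p6), and some share a chromosome without being close neighbours. Nlrp2 (5298547 to 5351035), Nlrp5 (23385889 to 23441923) and Nlrp14 (107113455 to 107198103) lie on chromosome 7, Khdc3 (73101381 to 73106631) and Ooep (78376903 to 78378588) on chromosome 9, and Padi6 (140727355 to 140742643) and Oog3 (144157556 to 144162651) on chromosome 4. Zar1 lies on chromosome 5 (72577113 to 72581361), Tle6 on chromosome 10 (81590904 to 81601185) and Npm2 on chromosome 14 (70647296 to 70661802). Nlrp2, Nlrp5, Nlrp14 and Oog3 belong to families with similar copies, so the assignment of reads among copies is uncertain for them.

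Levels between genes are compared per length, as CPM per kilobase of the longest coding transcript in vehicle ovaries. Padi6, an oocyte member of the peptidylarginine deiminase family that the lattices need, was highest, with 41.1 ± 19.4 CPM per kilobase at 3 months and 67.8 ± 16.6 at 0 months (SD, n = 3 each). Nlrp14 followed with 26.2 ± 12.7 and 41.4 ± 9.71, and Tle6 with 26 ± 5.01 and 33.1 ± 6.77. Nlrp2 was lowest, with 1.78 ± 0.911 at 3 months and 2.36 ± 0.661 at 0 months. The other 6 genes lay between 6.7 (Ooep) and 13.7 (Nlrp5) at 3 months and between 10.4 (Oog3) and 19.7 (Npm2) at 0 months. Most neighbours in this order lay within 1 SD of each other. These SDs are between libraries, and all genes were read in the same libraries. They therefore do not measure whether the order of a pair of genes held within each library. The gap below Tle6 and the gap above Nlrp2 exceeded the SD of both neighbours at both times, and those between Padi6 and Nlrp14 and between Khdc3 and Ooep did so at 0 months.

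All 10 genes were lower at 3 months than at 0 months when the difference was averaged over the 5 arms (4 treatments and vehicle). Their fitted levels at 3 months were 58.9 to 77.4% of those at 0 months, with a median log2 fold change of -0.70. Each passed limma's test at an adjusted p under 0.05 (Benjamini-Hochberg over all 14740 genes). Across all genes tested, 9.63% passed as lower, 10.6% as higher, and the median log2 fold change was 0.003. In either direction 20.3% passed. The 15 libraries at 3 months overlapped the 15 at 0 months for each of the 10 genes, and 0.0339% of all genes were lower without overlap.

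Among the genes of the subcortical maternal complex, Nlrp5, which encodes the founding component MATER, ranged over 4.55, 5.37 and 6.06 log2 CPM (lowest, median and highest of 15 libraries) at 3 months and over 5.52, 6.08 and 6.80 at 0 months. Every library at 3 months was below the median of 0 months, and every library at 0 months was above the median of 3 months. Its log2 fold change was -0.72 ± 0.16 (SE, adjusted p = 0.0042). Ooep, whose protein FLOPED is needed to assemble the complex, had 2.93, 3.75 and 4.58 log2 CPM at 3 months and 3.92, 4.46 and 5.14 at 0 months. It changed by -0.70 ± 0.17 (adjusted p = 0.00614), with 14 of 15 libraries at 3 months below the median of 0 months.

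Khdc3, which encodes FILIA, a component linked to genome stability in early embryos, had 3.34, 4.01 and 4.81 log2 CPM at 3 months and 4.14, 4.83 and 5.73 at 0 months. Its log2 fold change was -0.72 ± 0.17 (adjusted p = 0.00729). Tle6, a member of the Groucho co-repressor family that takes part in the complex, had 5.38, 5.67 and 6.2 log2 CPM at 3 months and 5.72, 6.09 and 6.50 at 0 months. It had the smallest change of the 10, -0.37 ± 0.09 (adjusted p = 0.00823), and the smallest spread between libraries. Padi6 had 5.89, 6.36 and 7.20 log2 CPM at 3 months and 6.80, 7.24 and 7.97 at 0 months. Its change was the largest of the 10, -0.76 ± 0.15 (adjusted p = 0.00197), and all 15 libraries at 3 months were below the median of 0 months.

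The other NLRP family members moved the same way. Nlrp14, a germ line member of the family, had 5.78, 6.23 and 7.06 log2 CPM at 3 months and 6.24, 7.04 and 7.66 at 0 months, a log2 fold change of -0.69 ± 0.15 (adjusted p = 0.00372). Nlrp2, a maternal effect gene associated with the complex, had 1.72, 2.33 and 3.24 log2 CPM at 3 months and 2.16, 3.00 and 3.62 at 0 months. Its change was -0.61 ± 0.17 (adjusted p = 0.0182), and 14 of 15 libraries lay below or above the other time's median on each side.

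Of the members outside the complex, Zar1, whose protein takes part in the storage of maternal mRNA, had 3.45, 4 and 4.72 log2 CPM at 3 months and 4.03, 4.69 and 5.59 at 0 months. It changed by -0.68 ± 0.16 (adjusted p = 0.00759). Npm2, the histone chaperone nucleoplasmin of the oocyte nucleus, had 2.84, 3.56 and 4.23 log2 CPM at 3 months and 3.74, 4.23 and 5.08 at 0 months, with a change of -0.70 ± 0.16 (adjusted p = 0.00449). Oog3, one of the oogenesins, a multicopy family expressed in oocytes, had 3.15, 3.65 and 4.67 log2 CPM at 3 months and 3.12, 4.49 and 5.04 at 0 months. Its change was -0.60 ± 0.19 (adjusted p = 0.0271), the least firm of the 10. Without replicate 3 of DEHP 200 at 0 months it was -0.51 (adjusted p = 0.0524), without replicate 3 of vehicle at 3 months -0.53 (adjusted p = 0.0547), and without replicate 1 of DiNP 100 at 3 months -0.55 (adjusted p = 0.0507). Leaving out any other single library kept all 10 genes past the threshold.

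**Figure D2:**
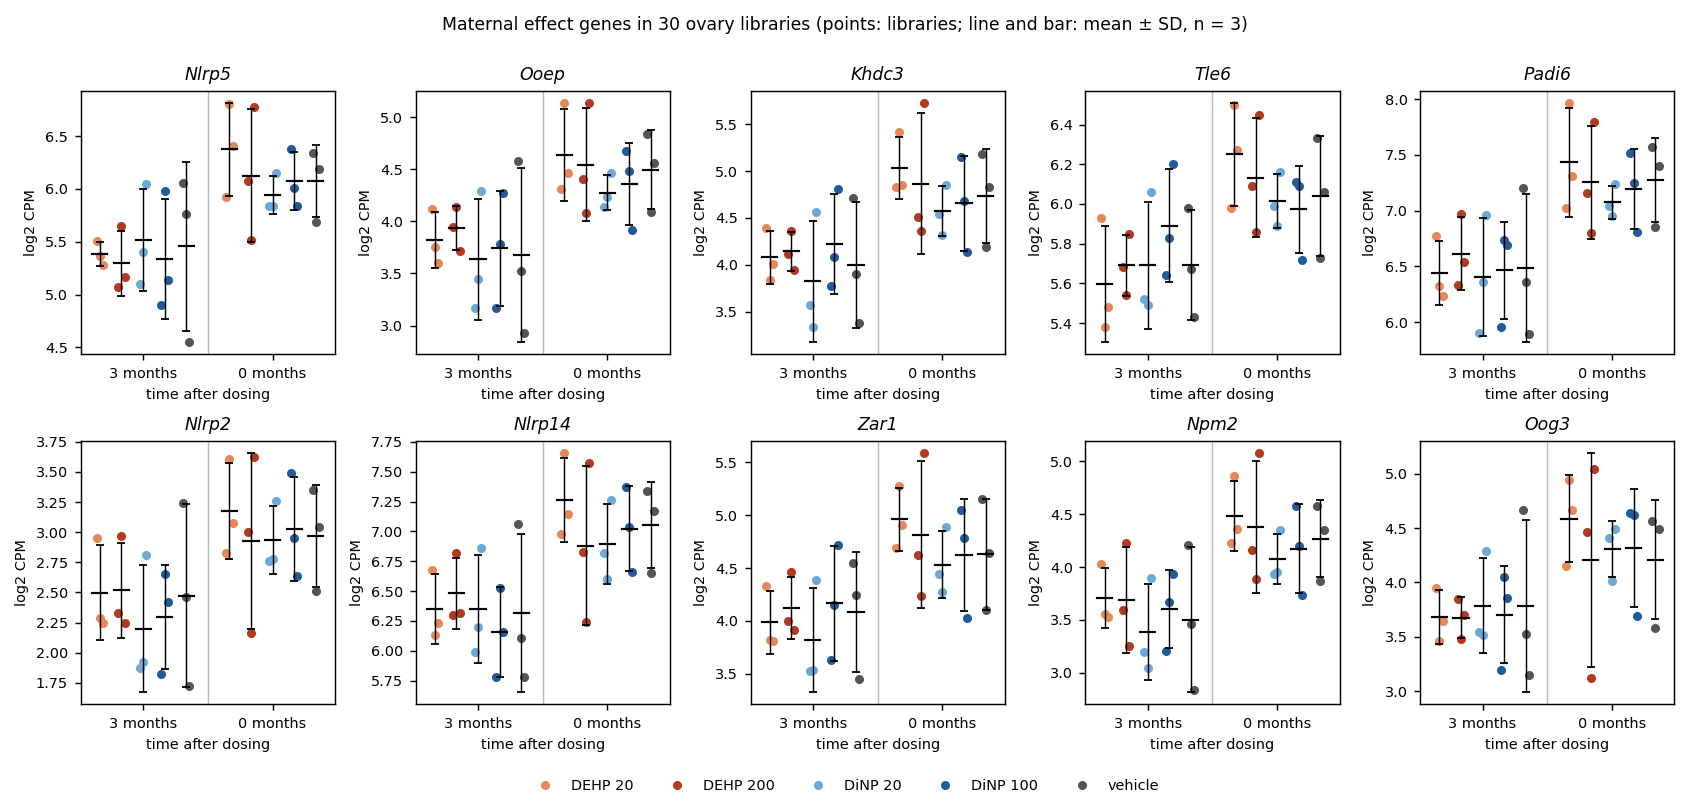
Log2 CPM of the 10 genes in each of 30 libraries, with 3 months left of 0 months and the arms in the order DEHP 20, DEHP 200, DiNP 20, DiNP 100 and vehicle within each. Points are libraries, and the black line and bar are the mean ± SD of 3: for Padi6 the libraries run from 5.89 to 7.20 at 3 months and from 6.80 to 7.97 at 0 months.

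Within single arms the 10 genes had negative log2 fold changes in each of the 5 arms, and none passed at an adjusted p under 0.05 in limma's test. These comparisons of 3 with 3 libraries called few genes at all: 0.0204% of genes in DEHP 20, 0.0136% in DEHP 200, 0.0204% in DiNP 20, 0.0475% in DiNP 100 and 0.00678% in vehicle ovaries. The median log2 fold change of the 10 genes was -0.91 in DEHP 20, -0.62 in DEHP 200, -0.65 in DiNP 20, -0.62 in DiNP 100 and -0.68 in vehicle ovaries. Leaving out 1 library, these medians ran from -1.06 to -0.72 in DEHP 20, -0.90 to -0.30 in DEHP 200, -0.95 to -0.41 in DiNP 20, -0.85 to -0.37 in DiNP 100 and -1.01 to -0.33 in vehicle. The values nearest 0 came without replicate 3 of 0 months in DEHP 200, without replicate 1 of 3 months in DiNP 20 and in DiNP 100, and without replicate 3 of 3 months in vehicle. At an unadjusted p under 0.05, 9 of the 10 genes were lower in DEHP 20, where 5.82% of all genes were, and 4 of the 10 in vehicle, where 3.88% were. In DEHP 200 it was 2 of the 10 (4.78% of all genes), in DiNP 20 0 (3.02%) and in DiNP 100 3 (9.37%). Estimated library weights ran from 0.00491 to 35.1 with a convergence warning, so counts that use them rest on few libraries. With them, 10 of the 10 passed as lower in DEHP 20, with 9.14% of all genes, and 7 in vehicle, with 11.5%. In DEHP 200, DiNP 20 and DiNP 100 it was 0 of the 10, with 0.00678%, 0.59% and 0% of all genes lower.

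DEHP 20 was the arm in which most of the 10 genes separated. The groups did not overlap for 9 of the 10 genes, all but Nlrp2, where 11.3% of all genes were lower without overlap. Padi6 had 6.77, 6.32 and 6.23 log2 CPM in DEHP 20 ovaries at 3 months, against 7.02, 7.97 and 7.31 at 0 months, a log2 fold change of -0.99 ± 0.34 (limma, adjusted p = 0.331). Tle6 had 5.93, 5.38 and 5.48 log2 CPM in DEHP 20 ovaries at 3 months, against 5.98, 6.50 and 6.27 at 0 months, a change of -0.66 ± 0.20 (limma, adjusted p = 0.303).

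Mean levels of other cells' markers also differed between the times in DEHP 20 ovaries. The mean of the 15 granulosa cell genes was 6.76 to 7.54 log2 CPM at 3 months, against 7.66 to 8.02 at 0 months. The oviduct epithelium list had 3.14 to 4.71 log2 CPM at 3 months, against 1.91 to 2.46 at 0 months, and the macrophage list 4.25 to 5.27, against 4.09 to 4.24. None of these list means overlapped between the times, although 0 of the 15 granulosa and 0 of the 7 oviduct genes tested passed in this arm. The luteal, theca and stroma, adipocyte and erythrocyte list means did overlap. The part of granulosa, oviduct and macrophage cells in the change of the 10 genes was not tested.

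Elsewhere the groups overlapped for most of the genes. Without overlap were Tle6 in DEHP 200 (6.23% of all genes), Npm2 in DiNP 20 (7.12%), Nlrp14 and Padi6 in DiNP 100 (8.02%) and 0 of the 10 in vehicle (7.11%). In vehicle ovaries Padi6 had 7.20, 6.36 and 5.89 log2 CPM at 3 months, against 7.57, 6.85 and 7.40 at 0 months, so that replicate 1 of 3 months lay inside the range of 0 months. Its change was -0.79 ± 0.34 (limma, adjusted p = 0.622).

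The change over time was not shown to differ between DEHP 20 and vehicle. The interaction of DEHP 20 with time had a median log2 value of -0.21 over the 10 genes and passed for 0 of them, with 0% of genes called and 289 of 14740 genes at an unadjusted p under 0.05. For Tle6, the member with the smallest unadjusted p, it was -0.31 ± 0.29 (95% confidence interval -0.91 to 0.29, limma, adjusted p = 1). The medians for DEHP 200, DiNP 20 and DiNP 100 by time were 0.04, 0.05 and 0.08, and 0% of genes passed in each. The median for DEHP 20 by time was 0.15 without replicate 1 of vehicle at 3 months and -0.51 without its replicate 3, and those of the other treatments also took both signs when 1 library was left out.

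The groups of 3 months formed the lower end of the order of group means of the 10 genes. From the bottom, the genes averaged 4.46 ± 0.48 log2 CPM in DiNP 20, 4.55 ± 0.66 in vehicle, 4.55 ± 0.27 in DEHP 20, 4.56 ± 0.39 in DiNP 100 and 4.62 ± 0.21 in DEHP 200 at 3 months (SD, n = 3 each). After a gap of 0.45 came the groups of 0 months, with 5.06 ± 0.22 in DiNP 20, 5.14 ± 0.39 in DiNP 100, 5.17 ± 0.41 in vehicle, 5.21 ± 0.63 in DEHP 200 and 5.42 ± 0.37 in DEHP 20. Neighbours within a time point differed by 0.21 or less, which is below their SD.

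Other genes of the pathway were read from lists chosen with earlier results of these data known, and their counts are descriptions. Of 29 other genes of the subcortical complex and maternal effect group, all had negative log2 fold changes for 3 over 0 months, 22 passed as lower, and the median was -0.52. The largest were Khdc1a (-1.05 ± 0.16, adjusted p = 0.000327) and Khdc1c (-1.01 ± 0.21, adjusted p = 0.00277), KH-domain genes expressed in oocytes. Dppa3, whose protein STELLA protects maternal methylation in the zygote, changed by -0.67 ± 0.16 (adjusted p = 0.00714). Uhrf1, a partner of the maintenance DNA methyltransferase, changed by -0.66 ± 0.11 (adjusted p = 0.000426), and Zbed3, a component of the complex, by -0.43 ± 0.12 (adjusted p = 0.0146). Nlrp4f, an NLRP gene tied to the complex, changed by -0.63 ± 0.17 (adjusted p = 0.0127). The smallest values were those of Plat (-0.01 ± 0.14), Smarca4 (-0.02 ± 0.05) and Cdkn1b (-0.08 ± 0.09), which did not pass.

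The oocyte reference list, 25 oocyte genes that hold none of the 10, was lower as well. Of its 24 genes tested, 18 passed as lower, and the median was -0.66. Sohlh1, a regulator of early oocytes, had the largest change (-1.47 ± 0.18, adjusted p = 3.21e-05), followed by Ddx4, a germ cell RNA helicase (-1.05 ± 0.17, adjusted p = 0.000371). Cpeb1 (-0.04 ± 0.09) and Oosp2 (-0.24 ± 0.22) had the smallest and did not pass. Among zona and ligand genes 5 of 6 passed as lower (median -0.67), and among early oocyte regulators 6 of 7 (median -0.87). These counts are not separate from that of the oocyte reference. It holds all the zona and ligand genes, and all the early regulators tested except Taf4b, which did not pass.

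Markers of other ovarian cells moved as well. Of 15 granulosa cell genes, 12 passed as lower (median -0.54), with Inhba at -1.07 ± 0.19 and Cyp19a1, the aromatase, at -1.07 ± 0.38 (limma, adjusted p = 0.00104 and 0.0487). The granulosa list mean ran from 6.71 to 7.60 log2 CPM at 3 months and from 7.25 to 8.09 at 0 months. Of 11 luteal cell genes, 3 passed as higher (median 0.72), with Akr1c18, which breaks down progesterone, at 3.43 ± 1.10 (adjusted p = 0.0318), and the list ran from 8.80 to 11.13 log2 CPM at 3 months and from 5.65 to 10.68 at 0 months. All 8 macrophage genes passed as higher (median 0.67), with list means of 4.25 to 5.44 log2 CPM at 3 months and 3.49 to 4.55 at 0 months. Of 10 theca and stroma genes, 5 passed as lower and 1 as higher. Of oviduct genes 1 of 7 passed as higher (Krt8, 0.29 ± 0.09, adjusted p = 0.0245), and of 6 adipocyte and 4 erythrocyte genes 0 passed. The part of granulosa cell and macrophage markers in the change of the 10 genes was not tested. With the luteal list mean as a covariate the median of the 10 genes was -0.30, and 1 of them, Padi6, passed as lower, as did 1.23% of all genes.

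The 10 genes moved with the rest of the oocyte transcripts. When the oocyte reference mean of each library was added to the fit, 0 of the 10 passed between 3 and 0 months, where 1.3% of all genes passed. Their log2 fold changes then lay between -0.11 (Padi6, 95% confidence interval -0.25 to 0.03) and 0.16 (Nlrp2, 0.02 to 0.31, and Oog3, -0.09 to 0.42). Nlrp2 had an unadjusted p of 0.0318 in that limma fit and an adjusted p of 0.288. Some oocyte genes did differ on this scale: Sohlh1 was lower, with -0.96 ± 0.20 (adjusted p = 0.0217), and Oosp1, an oocyte-secreted protein gene, was higher, with 0.33 ± 0.07 (adjusted p = 0.0287). Both are part of the reference mean itself.

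**Figure D3:**
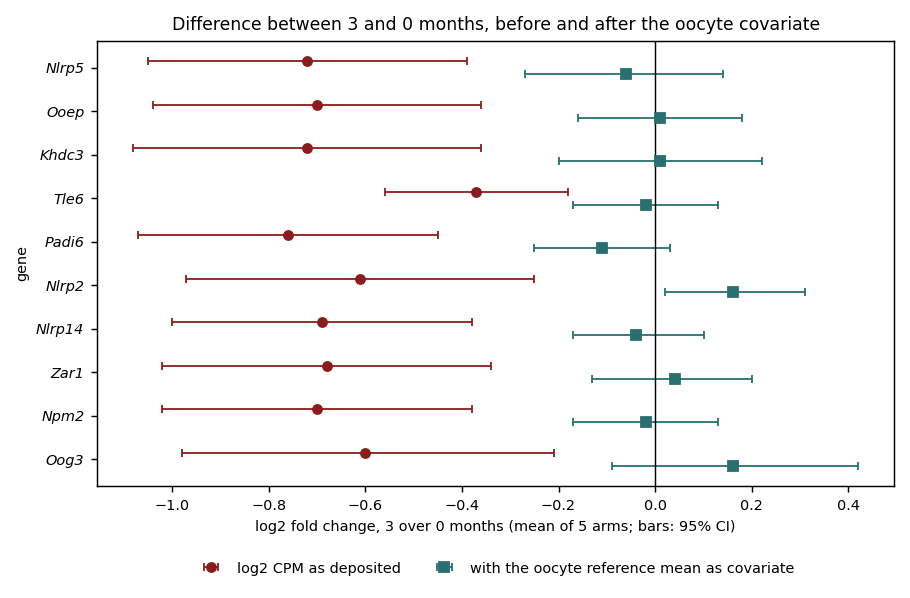
Log2 fold change of 3 over 0 months for the 10 genes, averaged over 5 arms, with 95% confidence intervals. Circles are the values as deposited (-0.76 to -0.37) and squares the fit with the oocyte reference mean as a covariate (-0.11 to 0.16).

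The slope of each gene on the oocyte reference gives its change per unit of the reference, and the remaining SD shows how closely it followed. It was 1.01 to 1.19 for 9 of the genes and 0.54 ± 0.08 (SE) for Tle6. The SD of single libraries around their group was 0.108 for Nlrp2 and 0.247 for Oog3 with the reference in the fit, against 0.499 and 0.538 without it. For Tle6 it was 0.143 with the reference and 0.26 without.

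Across the 30 libraries, deviations from group means correlated with those of the oocyte reference for each of the 10 genes. Pearson's r ran from 0.85 (Tle6) to 0.98 (Nlrp2), and Spearman's rho from 0.83 (Tle6) to 0.98 (Nlrp2). The permutation p within groups was between 1e-05, the smallest that 100000 resamples can give, and 0.0001, for r and for rho, and between 1e-05 and 0.0001 after Benjamini-Hochberg adjustment over the 10 relations computed. Without the 2 libraries farthest from the median of the oocyte reference deviations (replicate 1 of vehicle at 3 months and replicate 3 of DEHP 200 at 0 months), r was 0.82 (Tle6) to 0.97 (Nlrp2). Both measures of a library share its depth and its mix of cells, and their part in the relation was not tested.

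**Figure D4:**
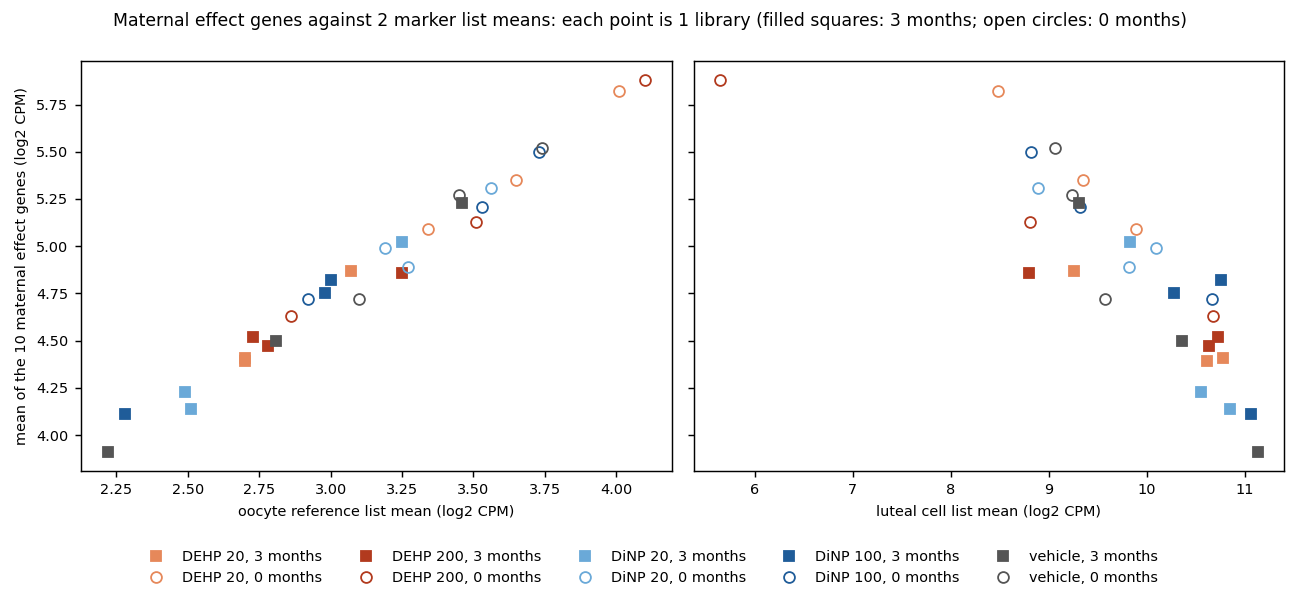
Mean log2 CPM of the 10 genes in each library against the mean of the oocyte reference list (left) and of the luteal cell list (right). Filled squares are 3 months and open circles 0 months; the points lie close to a line in the left panel, and in the right panel the library with the lowest luteal mean, 5.65, has the highest mean of the 10 genes, 5.88.

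Among themselves the 10 genes shared 89.3% of their within-group variance on 1 component. The closest pairs were Nlrp2 with Nlrp14 (r = 0.975 over 30 libraries) and Khdc3 with Zar1 (r = 0.962), and the least alike were Nlrp5 and Tle6 (r = 0.680). These values describe likeness of pattern and carry no test.

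The genes outside the 10 whose pattern was most like their mean were named by r over the same 30 deviations. They were Gdf9, the oocyte growth factor (r = 0.988), the zona pellucida genes Zp3 (0.983) and Zp2 (0.975), Eif4e1b, a cap-binding protein gene of oocytes (0.982), Ccno (0.981), Fbxw28 (0.981), Fbxw24 (0.977), Khdc1b (0.976), Elobl (0.974) and Oas1d (0.974). In all, 36 genes had r above 0.95 and 102 above 0.9. Each member also had a closest gene outside the 10. It was Zp2 for Ooep (0.972) and Padi6 (0.979), Gdf9 for Zar1 (0.980), Ccno for Nlrp2 (0.970), Fbxw28 for Nlrp14 (0.970) and Elobl for Npm2 (0.966). For Nlrp5 it was Rspo2 (0.951), for Khdc3 E330017A01Rik (0.953), for Oog3 C87977 (0.950) and for Tle6 Tent5b (0.919). By list, the median r was 0.97 for zona and ligand genes, 0.93 for the oocyte reference, 0.74 for early oocyte regulators, 0.47 for granulosa cell genes and -0.74 for luteal cell genes, against 0.01 for all genes.

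Neither phthalate was found to change any of the 10 genes relative to vehicle. In the 8 comparisons of a treated group with vehicle, 0 of the 10 passed and 0% of genes passed in limma's test. At an unadjusted p under 0.05 there were 212 to 1368 of 14740 genes per comparison and 0 of the 10. The smallest p of a member was 0.304, for Tle6 in DEHP 20 at 0 months. These 8 comparisons share the 3 vehicle libraries of their time point. Their precision is limited by the spread of these genes, whose SD within groups had a median of 0.468 on the log2 scale, against 0.246 over all genes.

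At 3 months, the 10 genes had median log2 fold changes of -0.01 in DEHP 20, 0.09 in DEHP 200, -0.05 in DiNP 20 and 0.02 in DiNP 100 against vehicle. They were 0.37, 0.46, 0.26 and 0.34 without replicate 1 of vehicle, and -0.29, -0.17, -0.40 and -0.31 without replicate 3, in the same order. Nlrp5 had 5.51, 5.37 and 5.28 log2 CPM in DEHP 20, 5.07, 5.65 and 5.17 in DEHP 200, 5.10, 5.40 and 6.05 in DiNP 20 and 4.90, 5.98 and 5.14 in DiNP 100 ovaries, against 6.06, 5.76 and 4.55 in vehicle. Every treated group lay inside the range of vehicle, which was the widest of the 5. The single values over the 10 genes ran from -0.27 (Nlrp2 in DiNP 20) to 0.26 (Ooep in DEHP 200), with standard errors of 0.20 to 0.42. The oviduct epithelium list had 3.14 to 4.71 log2 CPM in DEHP 20 and 2.82 to 4.28 in DEHP 200, against 2.27 to 2.47 in vehicle, and 0 of its 7 genes tested passed in either group. Its part in these comparisons was not tested.

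At 0 months, the median log2 fold changes were 0.21 in DEHP 20, 0.05 in DEHP 200, -0.14 in DiNP 20 and -0.05 in DiNP 100 against vehicle. In DEHP 20 all 10 values were positive, from 0.15 (Ooep) to 0.38 (Oog3, 95% confidence interval -0.48 to 1.24), and all 10 intervals held 0. Tle6 had 5.98, 6.50 and 6.27 log2 CPM in DEHP 20, against 6.33, 5.73 and 6.06 in vehicle, a log2 fold change of 0.21 (-0.21 to 0.64). Oog3 had 4.15, 4.94 and 4.67 log2 CPM in DEHP 20, against 4.56, 3.58 and 4.49 in vehicle. The groups overlapped for both genes. Leaving out 1 library, the medians ran from 0.02 to 0.38 in DEHP 20, -0.36 to 0.03 in DiNP 20 and -0.25 to 0.14 in DiNP 100, with the low ends without replicate 2 of vehicle. The high ends came without replicate 1 of vehicle, and for DiNP 100 without its replicate 3.

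DEHP 200 at 0 months was the widest group of that time, with Oog3 at 4.46, 3.12 and 5.04 log2 CPM, against 4.56, 3.58 and 4.49 in vehicle. Its replicate 2 was the lowest of the 15 libraries for 5 of the genes and its replicate 3 the highest for 6. Leaving out 1 library at a time, the median of the 10 genes in DEHP 200 against vehicle was -0.28 without its replicate 3 and 0.35 without its replicate 2.

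With the 4 treated groups pooled against vehicle, the median log2 fold change of the 10 genes was 0.01 at 3 months and 0.05 at 0 months, with 0% of genes called. At 3 months it was 0.36 without replicate 1 of vehicle and -0.28 without its replicate 3, and at 0 months 0.20 without replicate 1 and -0.19 without replicate 2. Single values ran from -0.10 to 0.15, and the outer bounds of the 95% confidence intervals were -0.75 and 0.83. An F test over the 4 treated groups gave unadjusted p-values of 0.691 to 0.998 for the 10 genes at 3 months and 0.669 to 0.968 at 0 months, with 0% of genes called (588 and 325 genes had an unadjusted p under 0.05).

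**Figure D5:**
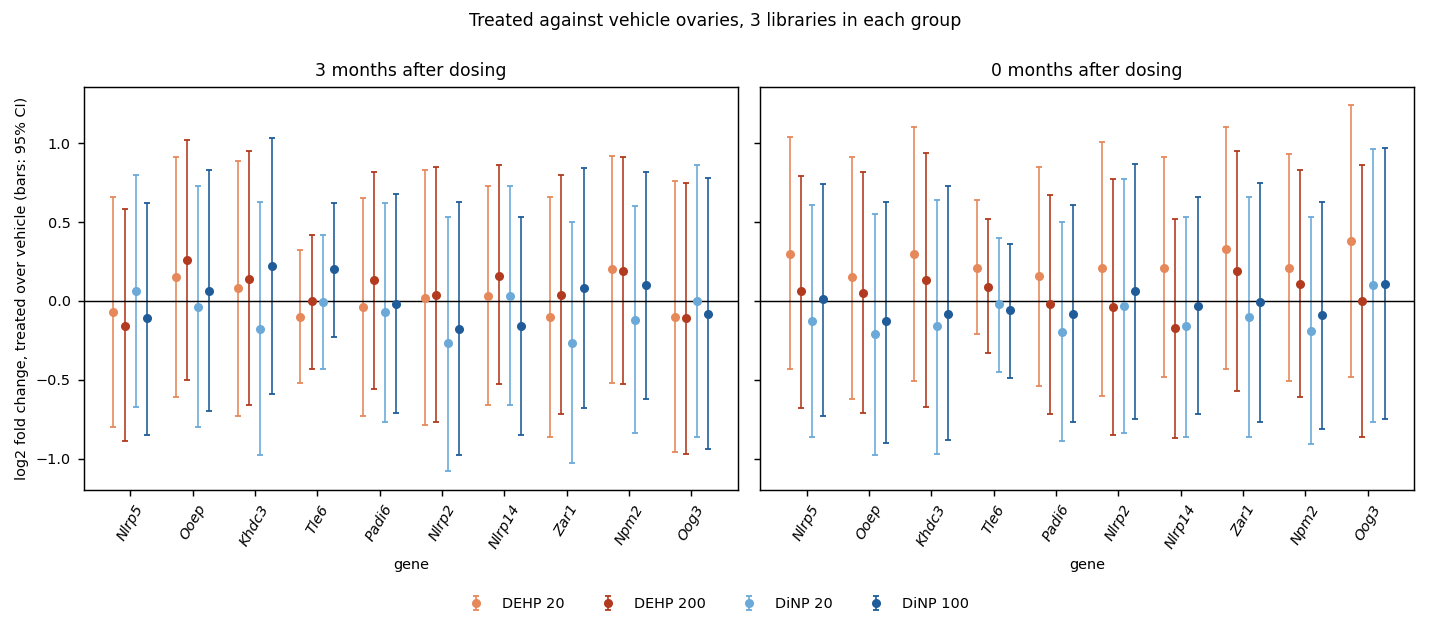
Log2 fold change of each treated group over vehicle for the 10 genes at 3 months (left) and 0 months (right), with 95% confidence intervals. Every interval includes 0, and the values run from -0.27 to 0.38.

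DEHP and DiNP were compared at the dose they share, 20 ug/kg/day, at both times, which makes 2 pairs. At 3 months the median log2 difference of DEHP 20 over DiNP 20 was 0.10 (-0.13 to 0.32 over the 10 genes), and 0% of genes passed. For Npm2, the member with the smallest p there, the levels were 4.03, 3.56 and 3.53 log2 CPM in DEHP 20 and 3.20, 3.05 and 3.90 in DiNP 20, a difference of 0.32 (95% confidence interval -0.40 to 1.04). At 0 months all 10 values were positive, with a median of 0.37 and a range of 0.24 to 0.46, and 0% of genes passed. Nlrp5 had 5.92, 6.80 and 6.41 log2 CPM in DEHP 20 and 5.84, 5.84 and 6.15 in DiNP 20, a difference of 0.43 (-0.30 to 1.16, unadjusted p = 0.237 and adjusted p = 1 in limma's test). With the oocyte reference in the fit, the 0 month values lay between -0.15 (Nlrp2) and 0.10 (Nlrp5). The intervals are wide enough to hold differences of more than 1 on the log2 scale, so the compounds are not shown to act alike. Leaving out 1 library, the median ran from -0.11 (without replicate 1 of DiNP 20) to 0.38 (without its replicate 3) at 3 months, and from 0.14 (without replicate 2 of DEHP 20) to 0.53 (without its replicate 1) at 0 months.

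The higher dose was compared with the lower dose of the same compound. DEHP 200 over DEHP 20 had a median log2 difference of 0.08 at 3 months and -0.17 at 0 months, where all 10 values were negative. DiNP 100 over DiNP 20 had medians of 0.10 and 0.09. The outer values were -0.38 (Nlrp14, DEHP at 0 months, unadjusted p = 0.267 in limma's test) and 0.40 (Khdc3, DiNP at 3 months), and 0 of the 10 and 0% of genes passed in each of the 4 comparisons. Each of the 4 medians took both signs when 1 library was left out. DEHP 200 and DiNP 100 differ in dose and were not compared.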

How the data were processed

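Whole ovary mRNA was measured in 30 libraries of 10 groups, assigned by sample title. Per the labels' protocols, ovaries were flash frozen and stranded mRNA libraries were read from one end. FastQC 0.11.8, Salmon 0.11.3, edgeR (no version) and R 3.5.2 are named with GRCm38.p6, per the submitters' processing notes. The authors deposited log2 CPM values for 18022 genes and no counts. Their back-transformed columns summed to 907668 to 1164842, and 13.8 to 32.8% of low values were within 0.05 of a whole read, so reads were not recovered and depth is approximate.

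Genes with mean log2 CPM above 0 (14740) were tested with limma 3.58.1 in R 4.3.3 (statmod 1.5.0). The model took the 10 group means, a trended prior, 20 residual and 2.85 prior degrees of freedom, and Benjamini-Hochberg adjustment within each comparison (threshold 0.05). Values are on the deposited log2 scale with no added pseudocount. The 3 against 0 month comparison averages the 5 arms. The oocyte covariate is the mean of 24 oocyte reference genes. The fit was tested on simulated data.

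Named genes are the 10 members, the 10 outside genes and, for each member, the outside gene and member with the highest r, and list genes as examples (the 2 highest and 2 lowest, and any that passed). The members and lists were chosen with earlier results of these data known. Correlations used 100000 permutations within groups. Promoters are RefSeq windows of 250 bases before a start (Python 3.11.15). Same-numbered libraries deviated from their group means with correlations of -0.42 to 0.36, so numbers do not pair libraries. Alternatives were other scalings, filters, priors, weights, covariates, sample sets and leaving out each library. Protein sequences were not used here.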

Additional observations from a re-analysis of the deposited data

How the results depend on the processing

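The lower level of the 10 genes at 3 months kept its direction and its 10 calls under median centring, quantile normalization, a pseudocount of 1 CPM, no filter, a filter at mean log2 CPM above 2, no trend, robust priors, array weights, the replicate block, and without replicates 2 and 3 of DEHP 200 at 0 months. Leaving out each library gave 9 to 10 of the 10 and medians of -0.77 to -0.63. With the luteal list as covariate 1 of the 10 passed (412 genes). With the oocyte reference as covariate 0 passed (191 genes), the median was 0, and Ooep (0.01), Khdc3 (0.01), Nlrp2 (0.16), Zar1 (0.04) and Oog3 (0.16) reversed sign. Both covariates moved with time themselves, and the cause of the other changes was not tested. The main limits are 3 libraries per group, approximate depth, unknown numbers of mice, read sharing among gene copies, and the tie between time, age and collection.

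Within arms, the oocyte covariate gave medians of the 10 genes of -0.02 in DEHP 20, -0.06 in DEHP 200, -0.02 in DiNP 20, 0.09 in DiNP 100 and -0.04 in vehicle for 3 over 0 months, with 0, 1, 0, 0 and 1 genes called in the same order. The luteal covariate gave -0.09 in DEHP 200, and called 1 gene there, 10 in DiNP 20 and 0 in DiNP 100.

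Replicate numbers did not pair libraries, since correlations of same-numbered deviations ran from -0.42 to 0.36 and were all over 0.1 only for DiNP 100 at 0 months. The replicate block kept all 10 genes over time (median -0.70). It called 1 gene in DEHP 200 and 2 in DiNP 100 over time, and 110 genes with the oocyte covariate. It changed no other call.

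Array weights gave 35.1 to replicate 2 of vehicle at 3 months and 0.00491 to replicate 1 of DiNP 100 at 3 months, with a convergence warning, so their counts rest on few libraries. They called all 10 genes over time in DEHP 20 (2639 genes) and 7 of the 10 in vehicle (3567 genes). At 3 months against vehicle they called 1781 genes in DEHP 20, 1481 in DEHP 200, 788 in DiNP 20, 2011 for the treated mean and 2105 by F test, and 0 of the 10. They called 1 gene over time in DEHP 200, 280 in DiNP 20, 0 in DiNP 100 and 4490 over the 5 arms, 3 for DEHP 20 over DiNP 20 at 3 months, 1 for DEHP 200 over DEHP 20 at 0 months, and 318, 1 and 4 for DEHP 20, DEHP 200 and DiNP 20 by time.

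Counts of all genes in small comparisons moved by a few. For DiNP 100 over time they were 2 with median centring, 1 with quantile normalization, 2 with no filter and 2 with no trend. The stricter filter called 0 in vehicle over time, and no trend 5 in DiNP 20 over time and 1 for DEHP 200 over DEHP 20 at 0 months. Without both DEHP 200 libraries there were 2 in vehicle, 6 in DiNP 20 and 4 in DiNP 100 over time, 1 for DEHP 200 over DEHP 20 at 0 months, and 68 with the oocyte covariate. Fits of the compared groups alone called 1 gene in DEHP 20, 1 in DEHP 200 and 1 in DiNP 100 against vehicle at 0 months, 2 for DiNP 100 over DiNP 20 at 3 months, and 0 over time in each arm.

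Leaving out 1 library, counts over time ran from 0 to 5 in DEHP 20, 0 to 5 in DEHP 200, 0 to 7 in DiNP 20, 0 to 2071 in DiNP 100 and 1 to 4 in vehicle, and from 40 to 301 with the oocyte covariate. They ran from 0 to 633 in DiNP 100 against vehicle at 3 months, from 0 to 1336 for DiNP 100 over DiNP 20 at 3 months, and from 0 to 5 by F test at 3 months. The high ends of 2071, 633 and 1336 came without replicate 2 of DiNP 100 at 3 months, and 0 of the 10 genes passed in any of them. At 0 months they ran from 0 to 1 in each treated group against vehicle and by F test, from 0 to 2 for the treated mean, and from 0 to 1 for DEHP 200 over DEHP 20 and for each treatment by time. Correlations with the oocyte reference kept their side of the threshold with log2 CPM in place of deviations and with the zona and ligand list. All genes of the zona and ligand list are also in the oocyte reference, so that list is not a separate check.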
